A study of Mus musculus with 6 samples.

Results

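The C/EBP family members Cebpa, Cebpb, Cebpd and Cebpe, together with Gfi1, Spi1 and Irf8, were followed through single-cell RNA sequencing of mouse bone marrow myeloid cells from 2 skeletal sites. These 7 genes were taken by symbol from the 32285 genes counted, and each symbol had its own row in all 6 libraries. The femur-derived group held 3 libraries, of which 1 came from a female mouse and 2 from male mice. The mandibular-derived group held 3 libraries, all from male mice. All mice were 2-month-old C57Bl/6 animals with no transgene or treatment, and all cells had been selected on CD11b microbeads, so the values describe marrow cells that carry this integrin and the cells that passed with them. The labels gave femurs with tibiae as the source of the Femur libraries, whereas the methods named femurs alone. The labels did not say whether a library was 1 mouse or a pool, and p-values therefore measure the spread between libraries.

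Neutrophils and monocytes share a progenitor, and the balance of a few transcription factors accompanies the choice between them. C/EBPα opens the granulocyte and monocyte program, C/EBPε is needed for the late granulocyte stages and their secondary granule proteins, and C/EBPβ and C/EBPδ act later and in inflammation. PU.1, the Ets factor encoded by Spi1, is required in both lineages. Gfi1 is a zinc finger repressor that favours the neutrophil side, and IRF8 favours monocytes and dendritic cells and restrains neutrophil production.

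In mm10, Cebpa (ENSMUSG00000034957) lies at chr7:35119293-35121928, Cebpb (ENSMUSG00000056501) at chr2:167688915-167690418, and Cebpd (ENSMUSG00000071637) at chr16:15887286-15891031, all on the plus strand. Cebpe (ENSMUSG00000052435) lies at chr14:54710360-54712174 and Gfi1 (ENSMUSG00000029275) at chr5:107716657-107726036, both on the minus strand. Spi1 (ENSMUSG00000002111) lies at chr2:91082390-91115756 and Irf8 (ENSMUSG00000041515) at chr8:120736358-120756694, on the plus strand. Cebpb has a single exon. The annotation places Gm45091, Tmem189, Spidr and A430072P03Rik opposite Cebpa, Cebpb, Cebpd and Gfi1, and Irf8 inside Gm20388 on the same strand. Gm20388 has no row in the files and Gm45091 averaged 0.0142 CPM over all cells. Whether the counting used strand was not stated, so reads of Cebpb, Cebpd and Gfi1 and of the genes opposite them may not be separated.

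RefSeq promoter windows on GRCm38.p6 were found for 4 of the 7 genes, namely Cebpa, Cebpb, Gfi1 and Irf8. 3 of these are shown, the 100 bases before the start of Cebpa and Irf8, the genes with their highest level in cluster 5 as described below, and of Cebpb for contrast. Capitals mark TATAAA, read on the gene's strand.
Cebpa, chr7:35119193-35119292, plus strand: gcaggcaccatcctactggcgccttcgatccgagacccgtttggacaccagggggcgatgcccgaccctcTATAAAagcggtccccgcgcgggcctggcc
Irf8, chr8:120736258-120736357, plus strand: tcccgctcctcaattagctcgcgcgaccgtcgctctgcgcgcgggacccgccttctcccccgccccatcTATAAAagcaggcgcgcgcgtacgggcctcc
Cebpb, chr2:167688815-167688914, plus strand: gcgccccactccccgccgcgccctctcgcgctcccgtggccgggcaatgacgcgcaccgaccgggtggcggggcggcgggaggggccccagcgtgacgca
TATAAA started 30 bases before the start of Cebpa and 31 bases before that of Irf8, and no match was found in the 250 bases before Cebpb. Of 32851 RefSeq windows of 250 bases, 7.59% held TATAAA on the gene's strand and 2.31% held it in the last 40 bases. The GC box GGGCGG, searched on both strands, occurred 5 times in the 250 bases of Cebpb, 2 times in those of Irf8 and 0 times in those of Cebpa, and 32.7% of windows held it at least once. The C/EBP motif TTGCNNAA, searched on both strands and held by 9.56% of windows, had no match in these windows of Cebpa, Cebpb and Irf8. Gfi1 and Irf8 have further windows whose start is not that of the gene in the annotation. 1 of 2 such Gfi1 windows held the C/EBP motif once, and the other Gfi1 window and the second Irf8 window held neither it nor TATAAA. These matches are a description of the letters and were not tied to any measurement here.

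Of 74091 barcodes, 69776 carried the authors' annotation and were used, with 7763 to 22797 cells and 82962160 to 244946998 UMIs per library, and a median of 6924 to 9158 UMIs per cell. Pairs of libraries shared 15 to 70 barcodes, and 500 barcodes occurred in 2 or more libraries. Levels are given as CPM, that is, UMIs per 1e+06 UMIs of the summed cells of a library, with the mean ± SD over libraries (n = 6 unless stated). The 9 clusters were checked against marker lists. Cluster 4 summed to 1308 to 3495 CPM for the neutrophil precursor markers Elane, Mpo, Prtn3 and Ctsg, against 7 to 23 in cluster 0. Clusters 4 and 0 shared high sums of the immature neutrophil markers Ltf, Camp, Ngp and Lcn2, with means of 94984 and 92378. Clusters 3, 2 and 1 had lower immature sums, with means of 24791, 13884 and 7452, and the mature markers Retnlg, Mmp8, Mmp9, Il1b and Cxcr2 reached 36393, 30804 and 23817 in that order. Cluster 5 had the highest monocyte marker sum at 2831 to 4417, cluster 6 held B cell markers at 6392 to 11981, and cluster 8 held 27408 to 209227 CPM of hemoglobin transcripts. Cluster 7 held immature and mature neutrophil markers together.

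Cebpe and Gfi1, the granulocyte regulators, were highest in cluster 4. Cebpe ranged from 490 to 576 CPM there with a median of 542, and its mean was 539 ± 28.0. In cluster 0 the lowest, median and highest libraries were 308, 351 and 364, so the clusters did not overlap. Within a library, cluster 4 held 1.58 ± 0.0992 times the Cebpe of cluster 0 and 13.3 ± 3.50 times that of cluster 1. Below cluster 0, and without overlapping it, came cluster 8 with a mean of 176, and then means of 143 in cluster 7, 98.2 in cluster 3, 96.7 in cluster 5, 63.1 in cluster 2, 49.6 in cluster 6 and 43.1 in cluster 1, and the ranges of neighbours in this order overlapped. From cluster 4 through clusters 0, 3 and 2 to cluster 1, Cebpe was lower at each step in 6 of 6 libraries. Gfi1 was a far scarcer transcript in these libraries. Its cluster 4 values ran from 24.1 to 30.8 with a median of 28.8, and the next mean was 13.6 ± 6.15 in cluster 6. Cluster 0 held 9.60 ± 0.915, and within a library cluster 4 held 2.96 ± 0.230 times as much. In clusters 1, 2 and 3 Gfi1 averaged 1.15, 1.31 and 1.48, and their ranges overlapped.

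**Figure D1:**
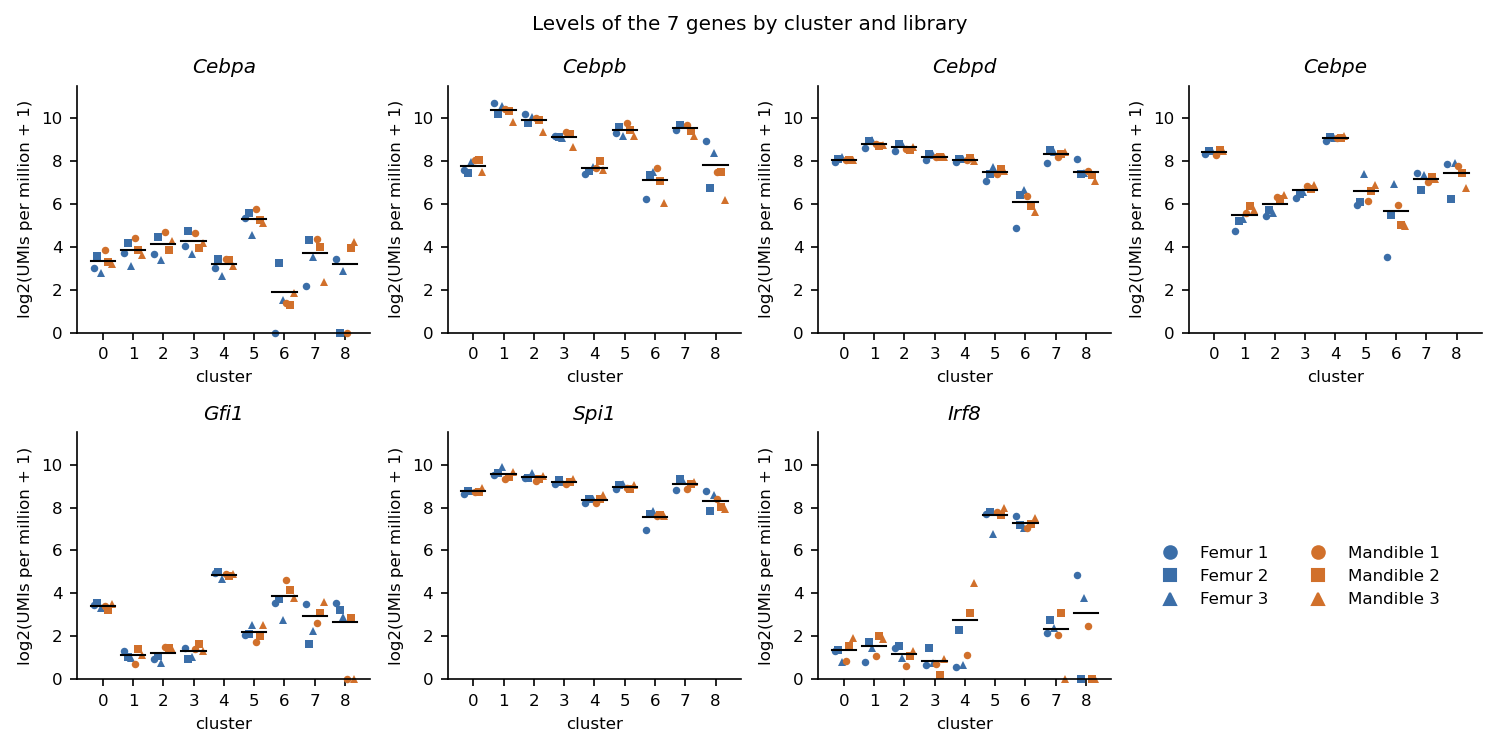
Levels of the 7 genes on the log2(CPM + 1) scale (y axis, from 0) in clusters 0 to 8 (x axis), with a point per library, colour for the site, symbol for the replicate and a black line at the mean. Cebpe and Gfi1 peak in cluster 4 (means 539 and 28.4), Cebpb, Cebpd and Spi1 in cluster 1 (1326, 445 and 767), and Cebpa and Irf8 in cluster 5 (38.8 and 201).

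Cebpb, Cebpd and Spi1 ran the other way and were highest in cluster 1. Cebpb had its lowest, median and highest library there at 915, 1335 and 1658 CPM. The mean was 964 in cluster 2, 735 in cluster 7, 688 in cluster 5 and 555 in cluster 3, and then 226 or less in clusters 8, 0, 4 and 6. Within a library, cluster 4 held 0.158 ± 0.0394 times the Cebpb of cluster 1. Cebpd spanned less. It lay at 390, 435 and 506 for the lowest, median and highest library in cluster 1, at 267 ± 14.6 in cluster 0 and at 265 ± 13.9 in cluster 4, and clusters 0 and 4 overlapped. It was 176 ± 27.3 in cluster 5 and 67.1 ± 26.8 in cluster 6, and these clusters did not overlap. Spi1 was found at a high level in every cluster, from 767 ± 99.5 in cluster 1 through 433 ± 28.9 in cluster 0 and 330 ± 32.5 in cluster 4 to 190 ± 34.9 in cluster 6. From cluster 4 through clusters 0, 3 and 2 to cluster 1, Spi1 was higher at each step in 6 of 6 libraries, with cluster 4 at 0.434 ± 0.0491 times cluster 1. Cebpb followed the same order from cluster 0 onward in 6 of 6 libraries, while clusters 0 and 4 were not separated (cluster 4 was higher in 2 of 6).

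Cebpa and Irf8 were highest in cluster 5. Cebpa ranged from 22.6 to 52.8 CPM there with a median of 38.5, and cluster 3 followed at 18.1 ± 5.54 with an overlapping range, although cluster 5 was higher in 6 of 6 libraries. Cluster 4, with its precursor markers, held 8.14 ± 1.84, close to the 9.04 ± 2.76 of cluster 0. Irf8 had the sharpest contrast. Its values in cluster 5 were 109 at the lowest, 213 at the median and 249 at the highest, and in cluster 6 they were 131, 146 and 191. The mean of every other cluster was below 8 CPM, and it was 1.54 in cluster 0 and 0.777 in cluster 3. Femur 3 was the low library of cluster 5 and the other 5 libraries lay at or above 202. The cluster with the highest level was the same for all 7 genes when any library was left out and when shares of cells thinned to 1000 UMIs were used instead. Clusters had been built from expression that may include these genes, so these differences between clusters are descriptions without a test.

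The share of cells with at least 1 UMI was highest in the same cluster as the level for 5 of the 7 genes, and after each cell was thinned to 1000 UMIs for all 7. Before thinning, Cebpd and Spi1 were detected most often in the deep cells of cluster 4, at 95.6% and 97.6%, against 80.6% and 94.5% in cluster 1. Cebpe was detected in 97.6% ± 2.36 of cluster 4 cells (median 21561 UMIs per cell) and in 40.01% ± 2.81 after thinning, against 86.1% ± 4.16 and 27.4% ± 2.01 in cluster 0 (median 11168 UMIs). Gfi1 was detected in 38.2% ± 2.67 of cluster 4 cells and in 9.75% ± 1.17 of cluster 0 cells, or 2.87% ± 0.723 and 0.856% ± 0.274 after thinning. Irf8 was detected in 67.3% of cluster 5 cells and 51.8% of cluster 6 cells. In clusters 1, 2 and 3, which carry mature neutrophil markers, at median depths of 4591, 5757 and 7000 UMIs, the Irf8 share was 0.790%, 0.799% and 0.539%, and it was 1.499% in cluster 0 and 3.03% in cluster 4, whose cells were deeper. After thinning, Irf8 shares in clusters 0 to 4 lay between 0.0713% and 0.2999%, a level at which single UMIs decide the value.

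Cluster 5 held several reference labels given by the authors from ImmGen profiles. Monocyte-labelled cells numbered 3734, neutrophil-labelled cells 2529, macrophage-labelled cells 482 and dendritic cell-labelled cells 174. The labels matched their markers in sum. Monocyte markers reached 5424 to 6657 CPM in monocyte-labelled cells and 1797 to 2499 in neutrophil-labelled cells, immature neutrophil markers reached 1642 to 6947 and 29372 to 51612 in the same order, and C1qa, C1qb, C1qc, Vcam1 and Mrc1 together reached 9695 to 17687 in macrophage-labelled cells.

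Irf8 stood at 258 ± 40.5 CPM in monocyte-labelled cells, with values of 237, 269 and 200 in Femur 1 to 3 and of 271, 250 and 322 in Mandible 1 to 3. In neutrophil-labelled cells of cluster 5 it was 95.6, 136 and 58.1 in the Femur libraries and 115, 91.9 and 116 in the Mandible libraries. The labels did not overlap, and monocyte-labelled cells held 2.62 ± 0.494 times as much within a library. Yet the neutrophil-labelled cells of cluster 5 were unlike the cells of cluster 0. Within a library they carried 78.03 ± 37.8 times the Irf8, 3.10 ± 0.714 times the Cebpb and 2.66 ± 0.397 times the Cebpa of cluster 0, and 0.524 ± 0.103 times its Cebpe and 0.665 ± 0.117 times its Gfi1. Other neutrophil clusters were unlike cluster 0 as well. The means in clusters 0, 3 and 2 were 218, 555 and 964 for Cebpb and 342, 98.2 and 63.1 for Cebpe. In that order they were 9.04, 18.1 and 16.4 for Cebpa and 9.60, 1.48 and 1.31 for Gfi1. Irf8 means there were 1.54, 0.777 and 1.28. The neutrophil-labelled cells of cluster 5 also had the highest median depth of these labels, 15445 UMIs per cell against 9328 in monocyte-labelled cells and 11168 in cluster 0. No removal of doublets was stated and no doublet caller was run here, so the part of cells captured together in these values was not tested.

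Cebpe was reversed between the labels. It was 151, 132 and 234 CPM in neutrophil-labelled cells of Femur 1 to 3 and 159, 185 and 215 in those of Mandible 1 to 3, against 15.0 to 43.3 in monocyte-labelled cells, so that the neutrophil label was 7.79 ± 1.74 times higher within a library. Gfi1 was 6.403 ± 1.39 in neutrophil-labelled cells and 0.495 ± 0.499 in monocyte-labelled cells. Macrophage-labelled cells had more Irf8 (394 ± 68.8) and Cebpa (85.7 ± 14.3) and less Cebpb (224 ± 65.8) than monocyte-labelled cells in 6 of 6 libraries, with Irf8 at 1.54 ± 0.275 times. Dendritic cell-labelled cells had Irf8 from 281 to 1115 in 5 libraries and 26.9 in Mandible 1, which held 16 such cells.

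**Figure D2:**
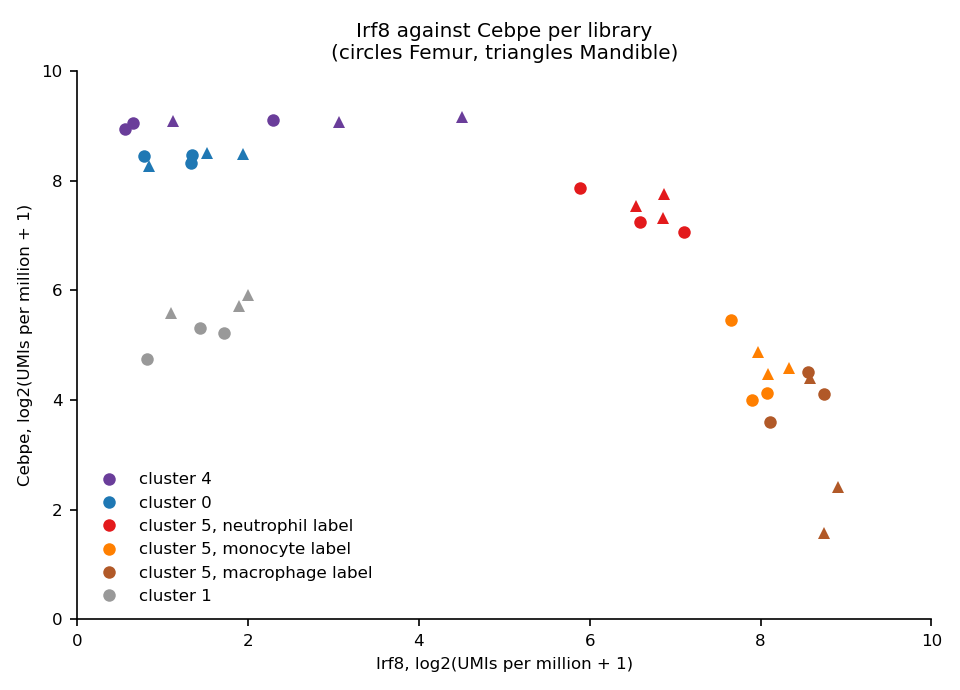
Irf8 (x axis) against Cebpe (y axis), both as log2(CPM + 1), with a point per library (circles for Femur, triangles for Mandible) and a colour per cluster or cluster 5 label. Neutrophil-labelled cells of cluster 5 lie between cluster 0 (Irf8 1.54, Cebpe 342 on average) and monocyte-labelled cells (Irf8 258, Cebpe 24.6) on both axes.

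Irf8 and Cebpe were counted in the same barcode in 813 of the 2529 neutrophil-labelled cells of cluster 5. The mean over libraries was 32.8% ± 8.04, against 30.9% for the product of the separate shares, and 3 of 6 libraries were above their product. After thinning to 1000 UMIs the joint share was 0.413% ± 0.270 against a product of 1.07%, with 0 of 6 libraries above. The thinned comparison rests on 11 cells.

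The genes whose levels were most like each member were taken over 54 sums of library and cluster, with Pearson's r of log2(CPM + 1) among genes averaging at least 10 CPM. For Cebpe they were Camp (0.96), the cathelicidin of secondary granules, Lbp (0.95) and Gca (0.94). For Gfi1 they were Cdc25a (0.86), a cell cycle phosphatase, Baz1a (0.84) and Cep55 (0.83). Spi1 ran with Tyrobp (0.98), Anxa2 (0.97) and Fgr (0.96), Cebpb with Fxyd5 (0.95), Mrpl33 (0.93) and Sat1 (0.93), and Cebpd with Ogfrl1 (0.94), Hp (0.94) and Gsr (0.93). Irf8 ran with Gm15987 (0.96), Txndc5 (0.95) and Cd48 (0.95), and Cebpa more loosely with Hexa, Idh1 and Rarg (0.79 each). Without clusters 7 and 8 these Cebpa values were 0.90, 0.90 and 0.88, and those of Gfi1 were 0.90, 0.88 and 0.86. Among the 7 genes themselves the highest values were 0.89 for Cebpb with Spi1 and 0.87 for Cebpd with Spi1, and the lowest was -0.68 for Cebpd with Irf8. The sums share libraries and cluster definitions, so r describes them and carries no p-value.

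Cell cycle phase gave a comparison inside a cluster, with cycling (S or G2M) and G1 cells of the same library set against each other by edgeR's quasi-likelihood test with the library as a block and Benjamini-Hochberg adjustment over all genes. The authors' phase scores rest on lists that do not hold the 7 genes. Ccna2, Ccnb1, Plk1, Mcm3 and Tk1, cell cycle genes chosen after the data were seen, summed to 5.95 to 15.7 CPM in G1 and 168 to 254 in cycling cells of cluster 0, and to 11.97 to 19.1 and 430 to 676 in monocyte-labelled cells, each of the 5 higher on average in cycling cells in both sets. Of the 20 gene tests in 3 cell sets, 11 passed an adjusted p of 0.05, where 56.6% of all genes did in monocyte-labelled cells, 47.6% in cluster 0 and 9.22% in cluster 4. In cycling against G1 monocyte-labelled cells of cluster 5, all 6 genes that passed the filter on low counts were called, 3 higher and 3 lower, where 28.2% of all genes tested were called higher in cycling cells and 28.4% lower. Gfi1 was below the filter there.

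Cebpe had the largest of these differences. It was 8.63, 12.3 and 25.7 CPM in G1 cells of Femur 1 to 3 and 15.2, 20.9 and 12.5 in those of Mandible 1 to 3. In cycling cells it was 69.9, 54.1 and 108 in Femur 1 to 3 and 48.1, 37.0 and 43.2 in Mandible 1 to 3. The phases did not overlap, and the log2 fold change was 1.84 ± 0.18 (SE, adjusted p = 6.35e-08, higher in 6 of 6 libraries). Irf8 was 245 ± 32.0 in G1 and 295 ± 64.3 in cycling cells, an overlapping pair of ranges with a log2 fold change of 0.26 ± 0.06 (adjusted p = 0.00201, higher in 6 of 6). Cebpd was also higher in cycling cells, at 0.32 ± 0.07 (adjusted p = 0.000437, 6 of 6). The other 3 were lower in cycling cells in 6 of 6 libraries. Cebpb was 927 ± 142 in G1 and 611 ± 89.0 in cycling cells (log2 fold change -0.60 ± 0.05, adjusted p = 1.26e-08), and Cebpa was 51.9 ± 10.7 and 35.3 ± 4.10 (-0.53 ± 0.11, adjusted p = 0.00038). Spi1 was 582 ± 52.2 in G1 and 415 ± 39.6 in cycling cells (-0.49 ± 0.05, adjusted p = 7.51e-08).

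Neutrophil precursor markers moved with this contrast. At least 1 UMI of Elane, Mpo, Prtn3 or Ctsg was present in 69.0% of the 577 cycling cells (median 14528 UMIs) and in 21.1% of the 3157 G1 cells (median 8986 UMIs). When barcodes with such a UMI were left out, a choice made after seeing the data that kept 5 libraries, the log2 fold change was 2.01 ± 0.24 for Cebpe, -0.53 ± 0.07 for Cebpb, -0.42 ± 0.08 for Spi1 and 0.38 ± 0.13 for Cebpd, all still called. Over all genes this fit called 3080 of 8630, 1586 higher and 1494 lower in cycling cells. The immature neutrophil markers Ltf, Camp, Ngp and Lcn2 still moved with the phase in these barcodes, with sums of 805 to 4342 CPM in G1 and of 6318 to 17096 in cycling cells and no marker at 0, and their part in the Cebpe value was not tested. Irf8 was then at -0.02 ± 0.10 (adjusted p = 0.885) and Cebpa at -0.36 ± 0.22 (adjusted p = 0.231), and neither was called.

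In cluster 0, 5 of the 7 genes were called between 1178 cycling cells (median 11108.5 UMIs) and 18083 G1 cells (median 11169 UMIs), where 21.3% of genes were called higher in cycling cells and 26.3% lower. Depth differed inside libraries. Cycling cells were shallower in Femur 1 (2670388 UMIs in 397 cells, against 38430685 in 2853 G1 cells). They were deeper in Mandible 3 (1133706 in 65, against 22199018 in 1922). Precursor and mature neutrophil markers also moved with this contrast, as given below, and their part was not tested. Gfi1 was higher in cycling cells. Its G1 values were 9.03, 10.3 and 8.004 CPM in Femur 1 to 3 and 9.15, 7.63 and 10.1 in Mandible 1 to 3. Its cycling values were 23.2, 16.6 and 20.5 in Femur 1 to 3 and 25.5, 15.4 and 18.5 in Mandible 1 to 3, with no overlap and a log2 fold change of 0.95 ± 0.14 (adjusted p = 2.71e-05). Cebpe was 335 ± 22.2 in G1 and 460 ± 28.1 in cycling cells, at 0.24 ± 0.07 on the log2 scale (adjusted p = 0.00812, 6 of 6 libraries), and these ranges did not overlap either. Irf8 rested on 51 UMIs in cycling cells, was higher in 5 of 6 libraries at 1.38 ± 0.39 (adjusted p = 0.00789) and lost the call without Mandible 2 (0.83, adjusted p = 0.0805). Spi1 was lower in cycling cells in 6 of 6 libraries at -0.33 ± 0.06 (adjusted p = 0.000269), and Cebpa was lower at -0.57 ± 0.18 (adjusted p = 0.0187). The call on Cebpa was lost without Femur 3 (-0.38, adjusted p = 0.172) and without Mandible 1 (-0.43, adjusted p = 0.0736), and DESeq2 did not make it (-0.52, adjusted p = 0.065).

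Scaling mattered in cluster 0. With library totals in place of the TMM factors, the median of all genes went from -0.05 to 0.17 and the share of higher among all calls from 44.8% to 72.8%. Gfi1 (1.17), Irf8 (1.61) and Cebpe (0.46) stayed called on this scale. Spi1 (-0.11, adjusted p = 0.157) and Cebpa (-0.35, adjusted p = 0.153) lost the call, Cebpd gained it (0.24, adjusted p = 0.00803), and Cebpb turned from -0.06 to 0.15, uncalled under both. In cluster 4, only Femur 3 and Mandible 2 had 20 or more cells in G1. 0 of the 7 genes were called there by edgeR or DESeq2, and 0 had an unadjusted p below 0.05 by edgeR, where 9.22% of all genes were called and 69.2% of the calls were higher in cycling cells (83.0% with library totals). Of all genes there, 21.1% had an unadjusted p below 0.05 by edgeR, and DESeq2 called 3.0%.

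**Figure D3:**
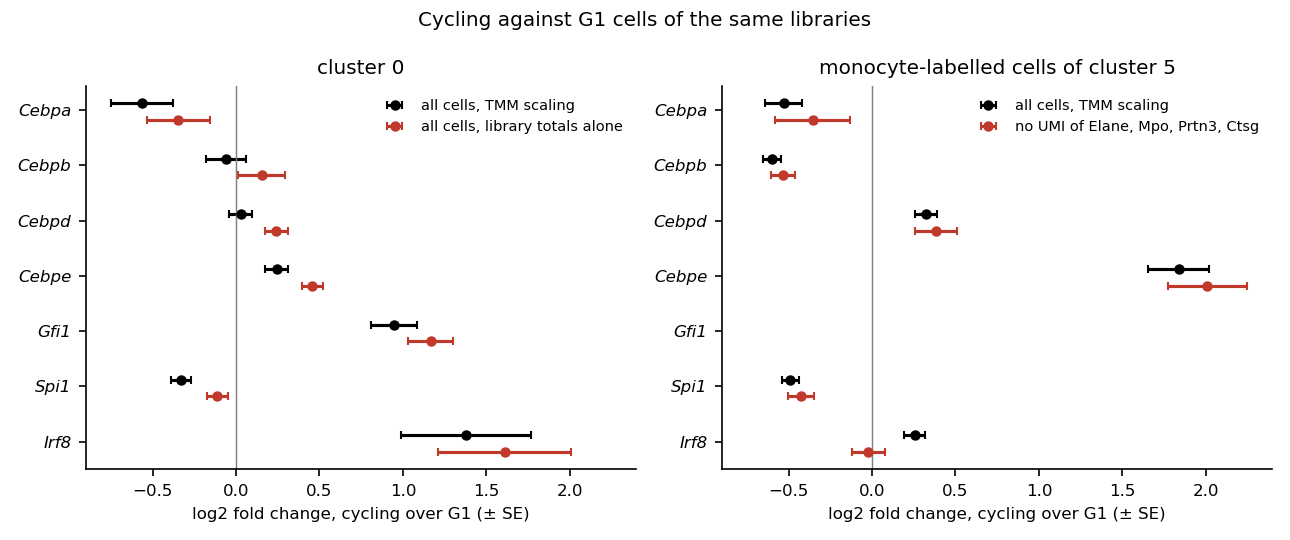
Log2 fold changes of cycling over G1 cells with SE bars (x axis) for each gene (y axis), for cluster 0 and for monocyte-labelled cells of cluster 5. Black points are the fit on all cells and red points an alternative, library totals alone in cluster 0 and cells without a precursor marker UMI in the monocyte-labelled cells, where Cebpe stays near 2 (1.84 and 2.01) and Irf8 goes from 0.26 to -0.02.

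Genes linked to these factors were counted from lists chosen with earlier results in view. A gene on more than 1 list counts in each, so the lists are not independent. Csf1r is on the PU.1, IRF8-linked and Gfi1 lists, and Csf3r and Lyz2 are on the PU.1 and C/EBP-linked lists. Csf1r is also a monocyte marker, and the part of markers in the PU.1 counts was not tested. Over all genes, 28.4% were called lower and 28.2% higher in cycling monocyte-labelled cells, 26.3% and 21.3% in cluster 0 (11.96% and 32.0% with library totals) and 2.84% and 6.39% in cluster 4. Of 15 PU.1 target genes, 10 were lower and 1 was higher in cycling monocyte-labelled cells (28.4% and 28.2% of all genes), with a median of -0.75 against -0.02 over all genes. They included Csf1r (-1.52), the receptor for macrophage colony-stimulating factor, Fcgr1 (-1.46), Ptprc (-1.22), Cd14 (-0.99), Fcgr3 (-0.78), Csf3r (-0.77), Cybb (-0.75), Itgam (-0.59) and Lyz2 (-0.56), and the exception was Csf2ra (0.22). In cluster 0, 10 of 14 tested were lower and 0 higher (26.3% and 21.3% of all genes), or 8 and 0 with library totals, among them Itgam (-0.78), Ptprc (-0.70), Ncf1 (-0.63), Cybb (-0.53), Csf2ra (-0.53), Lyz2 (-0.48), Fcgr3 (-0.47), Csf3r (-0.35) and Fes (-0.30). In cluster 4, 4 of 15 were lower, and these were Itgam (-0.56), Ptprc (-0.54), Cybb (-0.52) and Lyz2 (-0.46).

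Of 13 IRF8-linked monocyte and dendritic cell genes tested in monocyte-labelled cells, 11 were lower in cycling cells and 1 was higher (28.4% and 28.2% of all genes), with a median of -1.18 against -0.02 over all genes. Cd74 (-3.57) and Ciita (-3.20), of the class II antigen presentation pathway, and Batf3 (-2.82) were furthest down, followed by Csf1r (-1.52), Ctss (-1.48), Ifngr1 (-1.24), Tcf4 (-1.18), Ly86 (-1.01), Zeb2 (-0.68), Mpeg1 (-0.66) and Cst3 (-0.53), whereas Klf4 was at 0.22. The dendritic cell markers Flt3, Siglech, Cd209a, Xcr1, Clec9a and H2-Ab1 moved with this contrast, from a sum of 434 to 1405 CPM in G1 to 14.9 to 249 in cycling cells, where Siglech was at 0, and their part in these values was not tested. In cluster 0, of 11 tested, 6 were higher in cycling cells, 0 lower and the other 5 not called (21.3% and 26.3% of all genes higher and lower), or 8 and 0 with library totals, and the difference from monocyte-labelled cells was not tested. The 6 were Klf4 (1.52), Ly86 (1.40), Ctss (1.01), Zeb2 (0.76), Mpeg1 (0.47) and Id2 (0.33). Markers of other cells moved there too. Macrophage markers summed to 10.1 to 19.5 CPM in G1 and 13.8 to 134 in cycling cells, mature neutrophil markers to 7422 to 12207 and 2535 to 7858, and the part of either was not tested. Ctss (-1.20) was the 1 gene of 11 called in cluster 4.

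Of 15 C/EBP-linked granule and receptor genes, 11 were higher and 2 lower in cycling monocyte-labelled cells (28.2% and 28.4% of all genes), with a median of 1.61. The primary granule genes Elane (5.06), Ctsg (5.00), Mpo (4.04) and Prtn3 (3.50) led, which are the markers left out above. Fcnb (2.99), Camp (2.27), Ngp (2.02), Ltf (1.61), Lcn2 (1.43), Itgb2l (1.29) and Chil3 (0.91) followed, with Csf3r (-0.77) and Lyz2 (-0.56) lower. In cluster 0, 6 were higher and 8 lower (21.3% and 26.3% of all genes), or 7 and 6 with library totals. Prtn3 (2.25), Mpo (1.72), Ctsg (1.64), Elane (1.502), Fcnb (1.20) and Chil3 (0.33) were higher, and Mmp8 (-2.09), Ltf (-0.72), Itgb2l (-0.53), Cd177 (-0.50), Lyz2 (-0.48), Lcn2 (-0.39), Csf3r (-0.35) and Ngp (-0.31) were lower. In cluster 4, Elane (3.00), Mpo (3.00), Ctsg (2.62), Prtn3 (2.45) and Fcnb (0.91) were higher and Mmp8 (-1.16), Ltf (-0.47) and Lyz2 (-0.46) lower.

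Of genes that Gfi1 represses, 11 were tested in cluster 0, with 6 higher and 2 lower in cycling cells (21.3% and 26.3% of all genes), or 6 and 1 with library totals, 2 of the 6 being members described above. Besides Irf8 and Gfi1 itself, the higher genes were Cdkn1a (2.34), Id1 (1.05), Csf1 (0.87) and Id2 (0.33), and Ets1 (-0.25) was among the lower. In monocyte-labelled cells the counts were near the shares over all genes (28.2% higher and 28.4% lower). Of 10 tested, 3 were higher, Id1 (1.60), Cdkn1a (0.37) and Irf8, and 3 lower, Csf1r (-1.52) and Egr1 (-0.68) among them. In cluster 4, 2 of 10 were lower, Egr1 (-0.61) among them.

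Among 31 partner and antagonist regulators tested in monocyte-labelled cells, 7 were higher and 19 lower in cycling cells, where 28.2% and 28.4% of all genes were, so the higher count is near the background. Myb (2.83) and Myc (1.95), which mark proliferating progenitors, Id1 (1.60), Cbfb (0.75), Hlx (0.45), Runx1 (0.42) and Klf4 (0.22) were higher. Batf3 (-2.82), Maf (-2.28), Nr4a1 (-2.26), Irf4 (-1.99), Bach2 (-1.499), Tcf4 (-1.18), Bach1 (-1.17), Irf1 (-1.15), Trib1 (-1.07), Irf2 (-0.92), Klf2 (-0.86), Egr1 (-0.68), Zeb2 (-0.68), Stat3 (-0.55), Etv6 (-0.51), Irf5 (-0.43), Ikzf1 (-0.22) and Cebpz (-0.17) were among the lower. In cluster 0 the counts were near the background of 21.3% higher and 26.3% lower, and they went from 8 higher and 9 lower to 10 and 3 with library totals. Of 29, 8 were higher, among them Bach2 (1.85), Klf4 (1.52), Per3 (1.43), Id1 (1.05), Zeb2 (0.76), Myb (0.39) and Id2 (0.33), and 9 lower, Trib1 (-0.84), Cebpg (-0.56), Irf2 (-0.50), Ikzf1 (-0.49), Irf1 (-0.41), Bach1 (-0.25), Ets1 (-0.25), Klf2 (-0.23) and Etv6 (-0.20). In cluster 4, Trib1 (-0.85), Egr1 (-0.61) and Klf2 (-0.56) were lower among 29 tested.

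Mandibular-derived and femur-derived libraries were compared next, cluster by cluster, by edgeR's quasi-likelihood test on summed counts. Of the 56 tests of a member in a cluster, 0 passed an adjusted p of 0.05, 4 had an unadjusted p below 0.05 where 8.42% of all tests did, and DESeq2 called 2. The share of all genes called was 0.0163% in cluster 0, 0.0842% in cluster 1, 0.0416% in cluster 2, 0.0108% in cluster 3, 0.0245% in cluster 4, 0% in cluster 5, 0% in cluster 6, 0.0842% in cluster 7 and 0% in cluster 8. The libraries of the sites did not overlap in 5 of the 56 tests, where 12.9% of all tests of a gene in a cluster did not, and these were Cebpe in clusters 1, 2 and 3 and Gfi1 in clusters 2 and 6.

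Cebpe in cluster 1 was 25.9, 36.2 and 38.6 CPM in Femur 1 to 3 and 46.8, 59.7 and 51.6 in Mandible 1 to 3. The log2 fold change of Mandible over Femur was 0.79 ± 0.19 (SE, adjusted p = 0.137), where 4.88% of genes were separated with the higher values in Mandible. In cluster 2 the Femur libraries held 42.8, 50.8 and 47.2 and the Mandible libraries 78.2, 75.0 and 84.5. The difference there was 0.79 ± 0.13 (adjusted p = 0.0701), where 6.48% of genes were separated this way. In cluster 3 the values were 76.4, 86.6 and 93.5 against 113, 104 and 115, at 0.36 ± 0.16 (adjusted p = 0.999), where 3.84% were separated this way. With a library left out, the cluster 3 difference ran from 0.24 to 0.55. None of these passed the adjusted threshold. In clusters 4 and 0, where Cebpe was highest, its estimates ran from 0.02 to 0.17 and from -0.04 to 0.16 over the alternative fits, with 0 calls. The Cebpe estimate was positive in 6 of 9 clusters and lowest in cluster 6, at -0.73. Over the alternative fits the cluster 6 estimate ran from -1.08 to 0.20, with 0 calls. Femur 1 to 3 held 39, 158 and 60 cells of cluster 6. Ltf, Camp, Ngp and Lcn2 summed to 3884 to 26585 CPM there in Femur and 7050 to 10861 in Mandible, and their part was not tested. DESeq2 called Cebpe in cluster 1 (0.78, adjusted p = 0.0144) and in cluster 2 (0.78, adjusted p = 0.00057), where it called 2.88% and 1.47% of all genes, and the edgeR fit without a filter on low counts called the same pair, where it called 2.64% and 2.24%. The block on the number in the library name, on 4 libraries, called both as well (adjusted p = 8.26e-05 and 3.56e-05), where it called 14.1% and 12.4%.

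The immature neutrophil markers moved with these Cebpe values. The sum of Ltf, Camp, Ngp and Lcn2 was 2869 to 6598 CPM in the Femur libraries and 6727 to 15375 in the Mandible libraries of cluster 1, with all 4 genes higher on average in Mandible and none at 0. It was 6181 to 12154 and 13986 to 21609 in cluster 2, and 13012 to 27628 and 22070 to 31019, an overlapping pair, in cluster 3. Other marker sums were separated between the sites too. In cluster 1 the mature neutrophil markers summed to 19848 to 21638 in Femur and 25083 to 27751 in Mandible and the monocyte markers to 323 to 426 and 513 to 648, and in cluster 2 the monocyte markers summed to 528 to 669 and 752 to 855, with none of these markers at 0. Ltf, Camp, Ngp and Lcn2 are also on the C/EBP-linked list, so the counts of that list below partly recount them. The precursor markers Elane, Mpo, Prtn3 and Ctsg are on it as well. Mmp8 is on both the mature marker list and the C/EBP-linked list, and the part of these markers was not tested. When the cells below the median share of the immature markers in each cluster were taken alone, a choice made after seeing the data, the Cebpe differences were 0.37 ± 0.24 in cluster 1 (adjusted p = 0.807), 0.29 ± 0.23 in cluster 2 (adjusted p = 0.96) and 0.34 ± 0.19 in cluster 3 (adjusted p = 1). The choice used Camp, the gene most like Cebpe (r of 0.96), so this fit cannot separate Cebpe from the markers. Its median was taken over all libraries together and kept unequal parts of them. In cluster 1 these were 2409 of 3279 cells in Femur 2 and 1793 of 5801 in Femur 3. Of 15 C/EBP-linked granule and receptor genes in cluster 1, 0 were called and 11 had an unadjusted p below 0.05, where 13.6% of all genes did, with a median of 0.87 against 0.00 over all genes, and Cd177, Itgb2l and Mmp8 had the smallest p. In cluster 2, 0 of 14 were called and 8 had an unadjusted p below 0.05, where 12.2% of all genes did, with a median of 0.50, led by Csf3r, Itgb2l and Camp. The other lists held such p-values there too, for 6 of 11 IRF8-linked genes and 5 of 14 PU.1 target genes. So did 5 of 12 genes that Gfi1 represses and 5 of 27 partner and antagonist regulators. In cluster 1 these counts were 4 of 11, 6 of 15, 3 of 12 and 3 of 28 in the same order. With library totals in place of TMM factors the median of all genes in cluster 1 moved by -0.14, and calls over all genes went from 7 higher and 2 lower in Mandible to 14 higher and 23 lower.

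**Figure D4:**
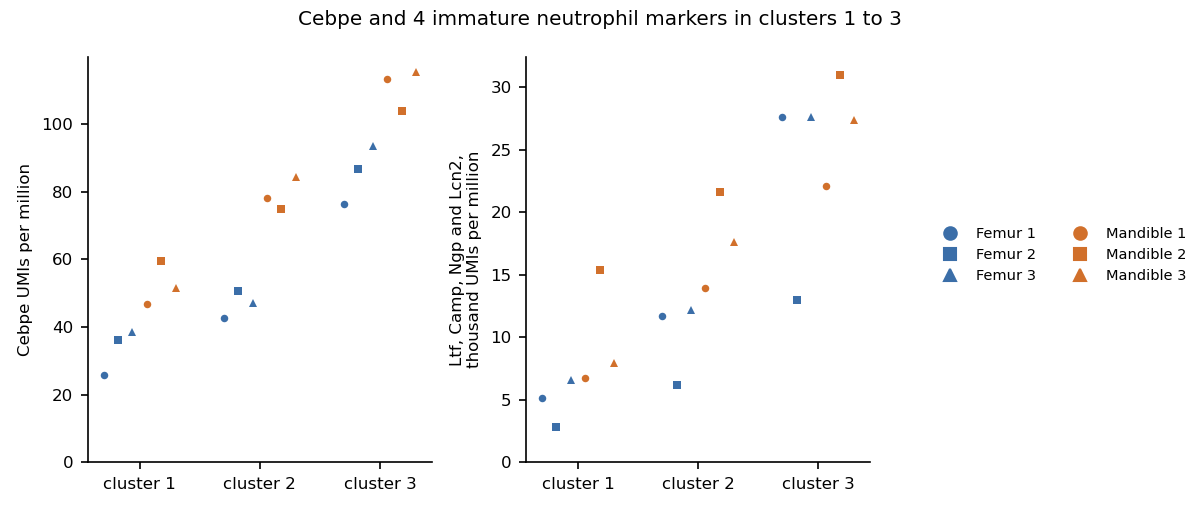
Cebpe (left) and the sum of Ltf, Camp, Ngp and Lcn2 (right, in units of 1000), both in CPM from 0, in clusters 1 to 3 with a point per library. Cebpe does not overlap between the sites in any of the 3 clusters, and the marker sum does not overlap in clusters 1 and 2.

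Gfi1 in cluster 2 was 0.902, 1.11 and 0.671 CPM in Femur 1 to 3 and 1.85, 1.74 and 1.60 in Mandible 1 to 3, from 8 to 18 UMIs in each library. The log2 fold change was 1.01 ± 0.34 (adjusted p = 0.257). In cluster 6 it was 10.6, 12.2 and 5.66 against 23.7, 17.1 and 12.6, from 3 to 35 UMIs in each library, at 0.72 ± 0.43 (adjusted p = 1). With a library left out, the cluster 6 difference ran from 0.51 to 1.10. In cluster 4, where Gfi1 was highest, the sites overlapped at 24.1 to 30.8 and 27.3 to 29.0, with a difference of 0.03 ± 0.10 that was -0.000879 with library totals.

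Irf8 in cluster 4 was 0.471, 3.90 and 0.568 CPM in Femur 1 to 3 and 1.17, 7.35 and 21.7 in Mandible 1 to 3. The sites overlapped, and the log2 fold change of 2.81 ± 0.95 had an adjusted p of 0.31. With a library left out it ran from 1.61 without Mandible 3 (adjusted p = 0.621) to 4.22 without Femur 2 (adjusted p = 0.239), and the lowest adjusted p was 0.0916, without Mandible 1. The fit without a filter on low counts called it (adjusted p = 6.77e-05), where it called 2.02% of all genes. Labels other than neutrophil made up 363 of the 7621 cells, or 4.76%, and held 519 of the 755 Irf8 UMIs, or 68.7%, of which 364 came from Mandible 3. By library their part was 0%, 38.8% and 2.56% in Femur 1 to 3 and 11.8%, 73.3% and 82.4% in Mandible 1 to 3, so neutrophil-labelled cells held most Irf8 UMIs in 4 of 6 libraries. Stem cell-labelled cells held 280 of these UMIs, pro-B cell-labelled cells 156 and monocyte-labelled cells 73. In the neutrophil-labelled cells alone the values were 0.490, 2.47 and 0.563 against 1.09, 2.11 and 4.17, at 1.24 ± 0.63 (adjusted p = 0.521).

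**Figure D5:**
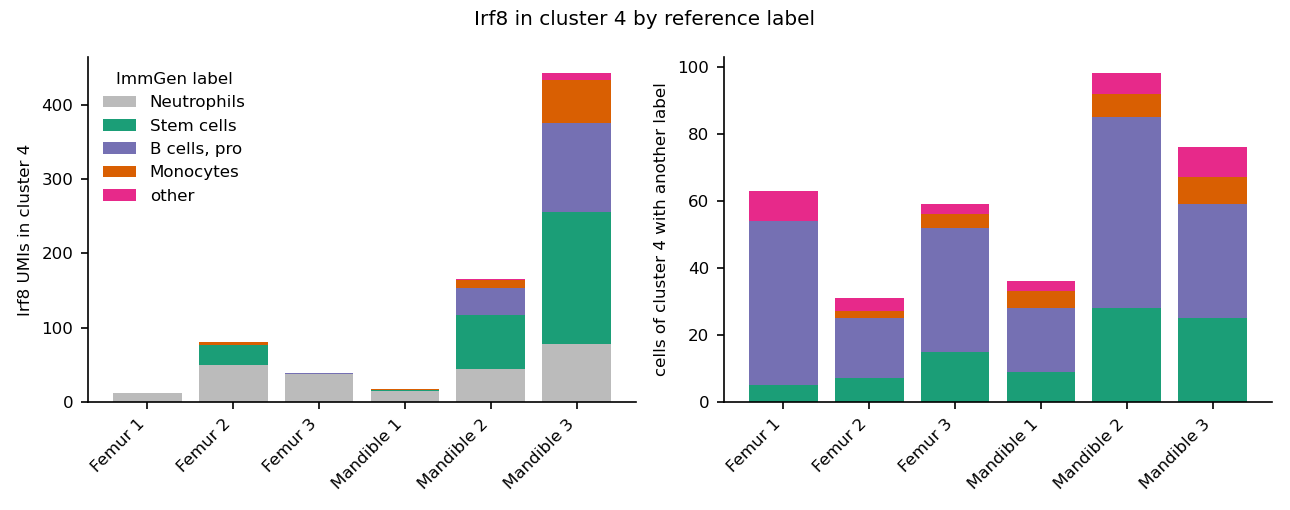
Irf8 UMIs in cluster 4 by ImmGen label (left, stacked bars from 0) and the number of cells with a label other than neutrophil (right, stacked bars from 0) in each library. Mandible 3 holds 442 of the 755 UMIs, and neutrophil-labelled cells, left out on the right, hold 236 of them over all libraries.

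In cluster 5, Irf8 was 207, 219 and 109 CPM in Femur 1 to 3 and 218, 202 and 249 in Mandible 1 to 3, at 0.31 ± 0.20 (adjusted p = 0.769), and this ran from 0.11 without Femur 3 to 0.49 without Femur 2. Cebpe was 60.6, 66.7 and 168 against 70.5, 96.9 and 117, at -0.17 ± 0.45, and without Femur 3 this became 0.62. Femur 3 had the lowest Irf8 and the highest Cebpe of cluster 5, and 49.7% of its cluster 5 cells were neutrophil-labelled, against 24.2% to 33.7% in the other 5 libraries. By the values above, Femur 3 was also lowest in Irf8 within the monocyte label and within the neutrophil label. It was highest in Cebpe within the neutrophil label. The part of the label mix in these values was not tested. Monocyte-labelled cells made up 47.5% ± 5.92 of cluster 5 in Femur and 55.1% ± 7.80 in Mandible (n = 3 each, exact permutation test, 2-sided, p = 0.3, adjusted p = 0.7). Neutrophil-labelled cells made up 37.5% ± 10.7 and 29.5% ± 4.87 (exact p = 0.5, adjusted p = 0.7), and macrophage-labelled cells 8.59% ± 6.35 and 5.21% ± 2.10 (exact p = 0.7, adjusted p = 0.7). Mandible minus Femur was 7.60, -7.99 and -3.37 percentage points for the monocyte, neutrophil and macrophage labels. Among cells with 2000 UMIs or more it was 4.65, -4.99 and -3.55 in that order (exact p = 0.6, 0.8 and 0.5). With 3 libraries against 3 the smallest p these exact tests allow is 0.1.

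Inside the labels of cluster 5, 0 of 18 tests of a member passed and 0 had an unadjusted p below 0.05 by edgeR, and DESeq2 called 0, where 0.0445% of genes were called in macrophage-labelled, 0.0968% in monocyte-labelled and 0.0603% in neutrophil-labelled cells by edgeR. In the same order, 6.58%, 13.2% and 4.88% of all genes had an unadjusted p below 0.05 by edgeR, and DESeq2 called 0.0246%, 2.5% and 0.291%. Irf8 differed by 0.23 ± 0.14 in monocyte-labelled cells (adjusted p = 0.53), by 0.21 ± 0.23 in neutrophil-labelled cells (adjusted p = 1) and by 0.17 ± 0.22 in macrophage-labelled cells (adjusted p = 0.901). Without Femur 3 these were 0.14, 0.00683 and 0.021, and without Femur 2 they were 0.34, 0.51 and 0.21. Without Femur 1 the macrophage value was 0.29, without Mandible 2 it was 0.094, and without Mandible 3 the monocyte value was 0.14. Whether the site difference itself differed between cluster 5 and the neutrophil clusters was tested by limma on differences within a library. None of the 7 genes was called for cluster 5 against cluster 0 or against cluster 4, 0 of the 14 tests had an unadjusted p below 0.05, and 0% of all genes were called for either pair of clusters. Over all genes, 10.3% had an unadjusted p below 0.05 against cluster 0 and 6.77% against cluster 4.

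Cebpa had a positive Mandible over Femur estimate in the 7 clusters in which it was tested, from 0.12 in cluster 3 to 0.48 in cluster 2, and also with library totals, without a call. Its sign turned with a library left out in cluster 3 (-0.10 without Mandible 1, -0.03 without Femur 3), cluster 5 (-0.049 and -0.038 in that order) and cluster 7 (-0.17 without Mandible 1, -0.065 without Femur 1). A block on the number in the library name, which joins Mandible 1 with Femur 2 and Mandible 2 with Femur 3 and uses these 4 libraries, called it in clusters 0 (adjusted p = 0.045) and 1 (adjusted p = 0.00144), where it called 4.598% and 14.1% of all genes. Mandible 1 and Femur 2 had the highest Cebpa and Femur 3 the lowest in each of clusters 0 to 5, so the sites overlapped. Cebpb, Cebpd and Spi1 had estimates between -0.21 and 0.24 in clusters 0 to 5, none of them called. Over all cells of a library, Irf8 was 21.0, 36.6 and 10.0 in Femur 1 to 3 and 29.1, 41.1 and 57.8 in Mandible 1 to 3, which overlapped, at 0.93 ± 0.38 (adjusted p = 0.497). Irf8 was the 1 member of 7 with an unadjusted p below 0.05 over all cells, where 9.37% of all genes had one. By edgeR or DESeq2, 0 of 7 were called, where 0% of all genes were called by edgeR and 1.68% by DESeq2. Fewer Irf8-expressing cells and less Irf8 per cell cannot be told apart in these sums over a library. Cluster 5 made up 6.33% to 12.3% of the cells in Femur and 11.1% to 15.1% in Mandible, and cluster 6 made up 0.263% to 1.36% and 1.16% to 4.50%, both overlapping.

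The linked lists were counted in the same site tests. In clusters 0 to 8, over all cells and in the labels of cluster 5, 0 genes of the lists were called by edgeR except Ciita in monocyte-labelled cells, the master regulator of class II genes, which was lower in Mandible by edgeR (-1.34 ± 0.19, adjusted p = 0.0451). With a library left out, this call was kept without Mandible 1 and lost without any of the other 5, with estimates of -1.53 to -1.19 and adjusted p of 0.00474 to 0.329, and it was also lost with library totals (adjusted p = 0.0561). DESeq2 called it (adjusted p = 2.37e-06), where it called 2.5% of all genes. The edgeR fits without a filter on low counts (3.68e-06) and with blocks on the title number (0.0204) or library number (0.000101) did too. These fits called 657 of 20316, 83 of 11364 and 814 of 11501 genes. The smallest p in monocyte-labelled cells belonged to Ciita, Cd74 and Batf3 among 13 IRF8-linked genes (median -0.27), 6 of which had an unadjusted p below 0.05 where 13.2% of all genes did, and to Fcgr1, Ptprc and Cd14 among 15 PU.1 target genes (median -0.21). In these monocyte-labelled cells the dendritic cell markers summed to 771 to 1261 CPM in Femur and 254 to 450 in Mandible, with 1 of the 6 higher on average in Mandible, and the macrophage markers to 212 to 287 and 19.985 to 73.6. Neither sum overlapped between the sites, no marker of either was at 0, and their part in the list's values was not tested. In cluster 4 they were Klf4, Ly86 and Cd74 among 11 IRF8-linked genes (median 0.49) and Elane, Prtn3 and Mmp8 among 15 C/EBP-linked genes (median 0.03). The neutrophil precursor markers of cluster 4 summed to 1308 to 1821 CPM in Femur and 1991 to 3495 in Mandible. B cell markers there summed to 2.02 to 7.76 and 8.10 to 19.5. Cd3e and Nkg7, listed as T and NK cell markers, summed to 76.1 to 90.9 and 100.6 to 131. None of these sums overlapped between the sites, and their part in the lists' values was not tested. Neutrophil-labelled cells made up 7258 of the 7621 cells of cluster 4, and which cells held Cd3e and Nkg7 was not tested. Among 12 genes that Gfi1 represses, Csf1, Egr1 and Irf8 led in cluster 0 (median 0.09) and Egr1, Irf8 and Csf1 in cluster 4 (median 0.12).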

How the data were processed

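CD11b-selected marrow cells of 6 libraries (3 Femur, 3 Mandible) were profiled with 10x Genomics 3' chemistry. The authors processed reads with Cell Ranger (7.0.1 in the submitters' notes, 7.1.0 in the matrix headers) against mm10 and analysed cells in R 4.1.0 with Seurat. They filtered cells on gene number and mitochondrial percentage, integrated the libraries, and assigned clusters, phases and SingleR labels. The deposited matrices hold raw UMI counts, which are whole numbers without normalization. The deposited annotation table gave each cell's cluster, phase and ImmGen label, and the authors' mitochondrial percent and other columns entered no result.

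Here the counts were summed per library and cluster, cluster 5 label or phase. Sums were tested with edgeR 4.0.16 (quasi-likelihood, TMM factors, filterByExpr, Benjamini-Hochberg over all genes, threshold 0.05), with limma 3.58.1 for differences between clusters (prior count 2) and DESeq2 1.42.0 as an alternative. Clusters needed 10 cells, labels 20 and phases 20 per library. Levels are UMIs per 1e+06 UMIs of the sum without the TMM factor, whereas fold changes include it. The SE given for an edgeR fold change is its absolute log2 value divided by the square root of the quasi-likelihood F statistic. Thinning used 1000 UMIs per cell. Scripts ran in R 4.3.3 and Python 3.11.15 and were tested on simulated data.

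The 7 genes, the lists and the tests were chosen with earlier results of these data known. The text names the 7 genes, the 3 genes most like each, every called gene of a list in the phase comparisons other than 3 that are counted but not reported here by name, and, for the site comparisons described, called genes or the 3 with the smallest p. Azu1 and Ddit3 were left out of the lists, since the first had no row and the other had 2. Same-numbered titles did not pair the libraries, and no doublet caller was run. Samples were grouped by the site in the labels. Precision follows the 82962160 to 244946998 UMIs per library, and intervals on shares reflect counting error or the spread between libraries only.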

Additional observations from a re-analysis of the deposited data

How the results depend on the processing

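For the 7 genes by site in each cluster, no filter on low counts gave 3 calls, DESeq2 2 and the replicate block on the number in the library name 4 (Cebpa in clusters 0 and 1, Cebpe in clusters 1 and 2), against 0 in the fit as reported, and over all genes and clusters these fits called 1.06%, 0.660% and 5.25%. The last used 4 libraries in 2 pairs, whose number the labels do not explain, with correlations of deviations from -0.633 to 0.501, both above 0.1 in 7 of 10 sums. The negative values all came from cluster 8, and the other sums ran from 0.003 to 0.501. The block on the replicate number in the titles called 0, and these numbers did not pair the libraries (correlations of -0.40 to 0.61, all above 0.1 in 0 of 10 sums, and each library best with its own number in 0 of 10). The 0.61 came from cluster 8, and the highest elsewhere was 0.18. Library totals alone turned Gfi1 in cluster 4 to -0.000879 (-0.036 to 0.096 with a library left out) and Cebpb by phase in cluster 0 to 0.15 (-0.11 to 0.14). No filter turned Cebpd by phase in cluster 0 to -0.021. The block on the title number turned Cebpe to 0.033 in cluster 5 and to 0.078 in monocyte-labelled cells, and the block on the library number turned it to -0.022 in neutrophil-labelled cells. G1 cells alone turned Cebpe in cluster 5 to 0.038. Leaving out barcodes with precursor marker UMIs turned Irf8 by phase in monocyte-labelled cells to -0.023, and without the library block its call was lost (0.27, adjusted p = 0.0795). With a library left out, Cebpe by site ran from -0.45 to 0.62 in cluster 5, -0.33 to 0.61 in monocyte-labelled and -0.082 to 0.52 in neutrophil-labelled cells. The macrophage share difference ran from -5.90 to 0.19 percentage points, monocytes from 3.11 to 10.9 and neutrophils from -11.9 to -1.90. The count of phase calls ran from 10 to 11, and 0 site calls arose, also without the female library. The cause was not tested. G1-only fits in clusters 4 and 8 were not run for want of cells.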
